A study of Mus musculus with 9 samples.

Results

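The 10 genes described here belong to synaptic signalling, and they were chosen by name: the 4 CaM kinase II genes Camk2a, Camk2b, Camk2d and Camk2g, the G protein alpha subunit genes Gnao1 and Gnai2, and the postsynaptic scaffold genes Shank1, Shank2, Shank3 and Dlg4. All 10 were among the 44788 genes of the deposited expression table. RNA-seq was performed in undifferentiated J1 cells, a mouse ESC line kept without feeder cells and with LIF, in 3 groups of 3 libraries each. Foxj3-ES and Zbtb18-ES are labelled as stably expressing Foxj3 or Zbtb18 and were made with a lentiviral vector that carries the coding sequence and a puromycin resistance gene, and the control ESCs are labelled wild type. A comparison with wild-type cells cannot tell the introduced gene apart from the vector or its selection. Whether each line was a single clone or a pool, and whether the 3 libraries of a group came from separate cultures, was not stated in the sources used here, and the p-values therefore rest on the spread of libraries that may differ technically alone. The comparisons address the question of how neural genes differ in ESCs that carry Foxj3 or Zbtb18. Levels are given as UQRPKM, reads per kilobase of gene length after upper-quartile scaling of the library.

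CaM kinase II is a large holoenzyme assembled from alpha, beta, gamma and delta subunits, which are encoded by separate genes. Calcium-bound calmodulin switches it on, and it can then phosphorylate itself and stay active after calcium has fallen. In neurons the alpha and beta subunits are abundant at excitatory synapses, where the beta subunit also binds actin filaments. Gnao1 encodes G alpha o, the most plentiful G protein alpha subunit of the brain, and Gnai2 encodes a related inhibitory subunit that is made in most tissues. Shank proteins and PSD-95, the product of Dlg4, are scaffolds of the postsynaptic density: PSD-95 binds glutamate receptors, and Shank proteins are joined to PSD-95 through the SAPAP proteins encoded by the Dlgap genes. Undifferentiated ESCs have no synapses, so these levels are those of transcripts only.

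The identity of the cells and the quality of the libraries were examined first. All 14 ESC markers, Pou5f1, Sox2 and Nanog among them, stood at a UQRPKM of at least 1 in each of the 9 libraries, and their summed level was 46048 to 49285 in Foxj3-ES, 50359 to 66302 in Zbtb18-ES and 44510 to 46606 in control ESCs. Without Pou5f1, the highest of them, the sums were 27781 to 31461 in Foxj3-ES, 33455 to 45414 in Zbtb18-ES and 30395 to 33329 in control ESCs, where the Foxj3-ES range began below that of controls. The summed level of 17 neuron markers was 7290 to 7853 in Foxj3-ES, 2788 to 5222 in Zbtb18-ES and 3161 to 4030 in controls. Stmn2 made up most of it, and without Stmn2 the sums were 1270 to 1497, 580 to 1300 and 1048 to 1570 in the same order of groups. Dcx, a microtubule gene of young neurons, was listed at 0 in every library, and 11 of the 17 were at 1 or more in all. The introduced genes were not clearly raised. Foxj3 had a UQRPKM of 119, 168 and 177 in Foxj3-ES, against 124, 145 and 115 in control ESCs, and Zbtb18 had 34.9, 129 and 57.0 in Zbtb18-ES, against 46.4, 65.4 and 49.0 in control ESCs. The groups overlapped in both cases, Zbtb18-ES replicate 1 lay below every control, and neither gene passed the test in its own line (log2 fold changes of 0.26 and 0.26, limma, adjusted p = 0.388 and 0.715). Foxj3-ES and Zbtb18-ES are therefore the names that the labels give, and the expression table did not show the introduced gene apart from the endogenous one. Without Zbtb18-ES replicate 1, Camk2b, Gnao1 and Shank1 were still called lower in the line, and Shank3 was not. The depth was estimated at 10860000 to 15280000 reads per library, and this and the read numbers of single genes are approximate. They take the most common step among low values of genes with 1 transcript as 1 read, but some values lay at 0.5 of that step, and if those were 1 read all read numbers would be 2 times as large. Control replicate 2 was unlike the rest in base composition. For this, the log2 value of each gene was taken as its deviation from its own mean over the 9 libraries. In control replicate 2, the median deviation of the 10% of mRNA genes richest in GC was 0.97 above that of the 10% poorest. This gap was -0.31 to 0.19 in Foxj3-ES, -0.49 to -0.13 in Zbtb18-ES and 0.04 and 0.09 in the remaining controls.

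The start sites of Camk2b and Shank3 are shown because both genes were lower in at least one line and their promoter windows hold no annotated exon. The 250 bases before the RefSeq start of Camk2b lie at chr11:6065749-6065998 of GRCm38.p6 on the minus strand, inside the span that GENCODE gives the gene but outside its exons. Those of Shank3 lie at chr15:89499358-89499607 on the plus strand, upstream of the gene. Every CG dinucleotide is in capitals.
Camk2b: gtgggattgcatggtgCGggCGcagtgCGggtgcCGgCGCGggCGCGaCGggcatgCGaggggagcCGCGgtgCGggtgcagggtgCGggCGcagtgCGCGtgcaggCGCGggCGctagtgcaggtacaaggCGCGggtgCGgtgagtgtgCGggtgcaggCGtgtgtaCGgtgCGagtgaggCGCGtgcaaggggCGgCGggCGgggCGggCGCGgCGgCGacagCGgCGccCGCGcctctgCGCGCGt
Shank3: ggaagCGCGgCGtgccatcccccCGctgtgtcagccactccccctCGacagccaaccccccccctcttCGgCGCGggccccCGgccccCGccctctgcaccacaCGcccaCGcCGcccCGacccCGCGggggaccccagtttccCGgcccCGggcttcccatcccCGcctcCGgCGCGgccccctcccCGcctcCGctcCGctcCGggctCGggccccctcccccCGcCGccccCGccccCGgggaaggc

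Both windows are dense in CG dinucleotides. Camk2b held 44 in 250 bases with a GC content of 78.4%, and 99.5% of 32841 RefSeq windows of the same length held fewer. Shank3 held 31 with a GC content of 82.4%, and 94.8% of windows held fewer. The Gnao1 window held 36 with a GC content of 76.4% and is not printed, since 202 of its bases are exon in GENCODE. The median window held 6 and had a GC content of 52.4%. A forkhead motif, GTAAACA, and an E-box bound by Zbtb18, CATCTG, were searched on both strands, and neither was in the windows of Camk2b, Gnao1, Shank3, Camk2d or Dlg4, which has 3 windows. Of all windows 3.17% held the first motif and 14.4% the second. No window was searched for the other 5 genes, Camk2a, Camk2g, Gnai2, Shank1 and Shank2. Member windows on chromosome 18, where Camk2a lies, were left out of the search, so its promoter was not examined. Camk2g, Gnai2, Shank1 and Shank2 had no window in the set used.

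The 10 genes spanned a wide range of levels in ESCs. Gnai2 was by far the highest of them, with a mean UQRPKM of 1690 ± 265 in control ESCs (SD, n = 3), above 97% of the tested mRNA genes. Camk2b and Camk2g followed with 181 ± 42.5 and 144 ± 18.5, and Camk2b stood below Camk2g in both lines. Shank3 and Dlg4 had 46.5 ± 16.4 and 40.2 ± 12.5, a difference within their spread. Shank1, Gnao1 and Camk2a were lower, at 14.9 ± 4.08, 9.2 ± 3.91 and 5.05 ± 0.802, and Camk2d, at 1.19 ± 0.372, stood above 5% of the tested mRNA genes. Shank2 was close to absent, with 0.158 ± 0.0525 in controls and a highest value of 0.218 in any library, which is about 2.0 reads. Neighbours in this order whose control libraries overlapped were Camk2b and Camk2g, Shank3 and Dlg4, and Shank1 and Gnao1.

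**Figure D1:**
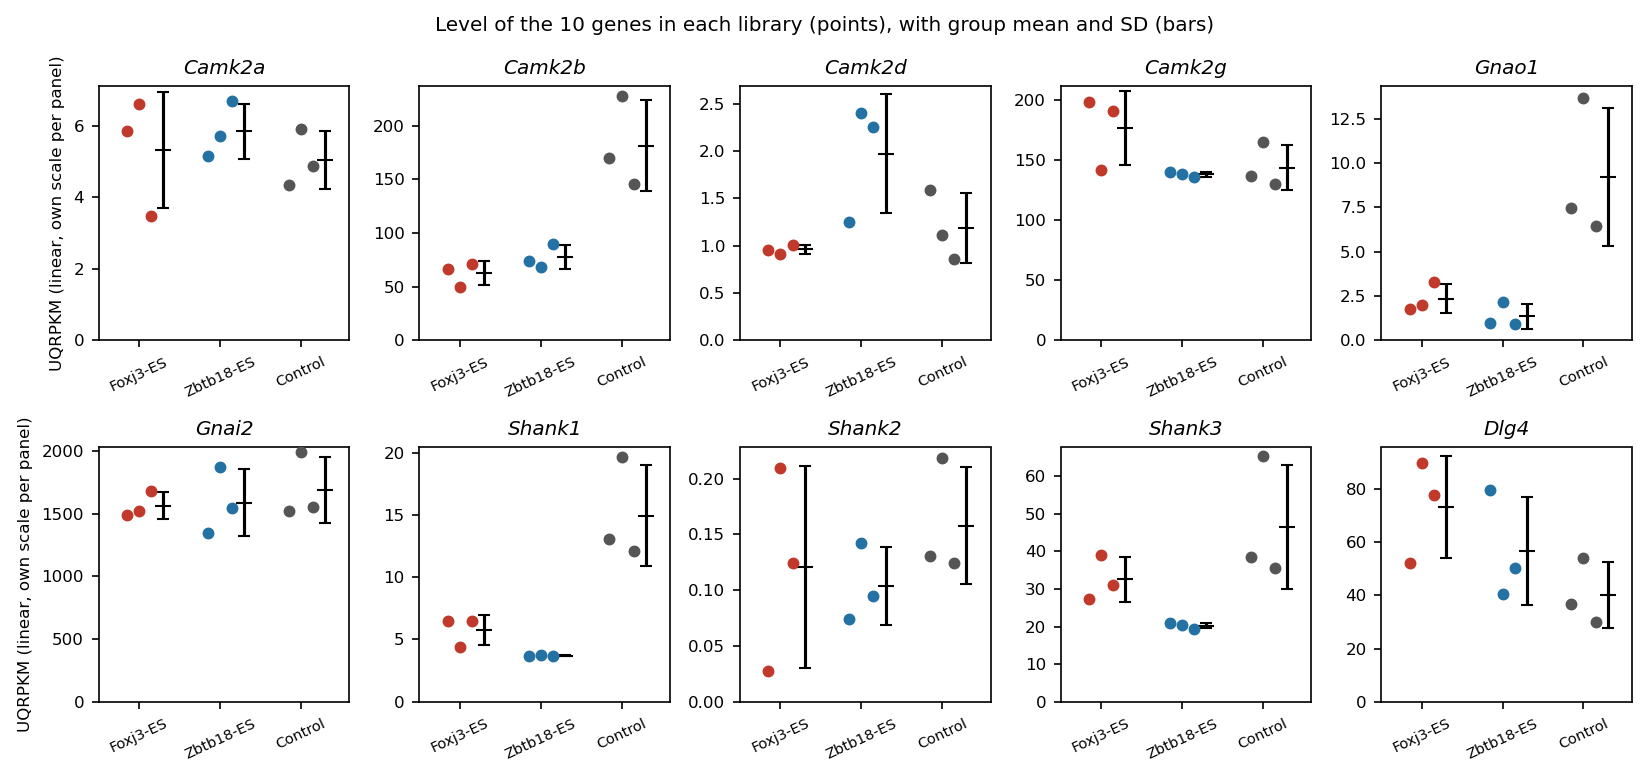
Level of each of the 10 genes (vertical axis, UQRPKM on a linear scale of its own in each panel) in the 3 libraries of Foxj3-ES, Zbtb18-ES and control ESCs; points are libraries, and bars are the group mean and SD. The points of both lines lie below all 3 controls for Camk2b, Gnao1 and Shank1, and those of Zbtb18-ES also for Shank3.

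Of the 10 genes, 9 reached 1 UQRPKM in 3 or more libraries and were tested, and Shank2 was not. In Foxj3-ES, 3 of these 9 were lower than in control ESCs at an adjusted p under 0.05, namely Camk2b, Gnao1 and Shank1, and none was higher. Over all 22268 tested genes 7.01% were called lower and 7.54% higher in this comparison. In Zbtb18-ES, the same 3 genes and Shank3 were lower, which is 4 of 9, and again none was higher, against 6.50% lower and 5.31% higher among all tested genes. The genes whose 3 libraries lay wholly below the 3 controls were the same as those called, beside 18.5% (Foxj3-ES) and 20.0% (Zbtb18-ES) of all tested genes. Camk2b, Gnao1 and Shank1 had been picked as candidates by the study because they differed from control in both lines on these same libraries. Their calls, their direction and the counts of 3 and 4 of 9 are therefore not independent evidence. The shares of all tested genes do not test these counts. Differences from control in the family totals, shares and ratio given below include these genes and are not independent evidence either. Both comparisons also use the same 3 control libraries, so their values are given side by side only. In RNA from whole cultures, fewer cells with a transcript and less of it per cell cannot be told apart.

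**Figure D2:**
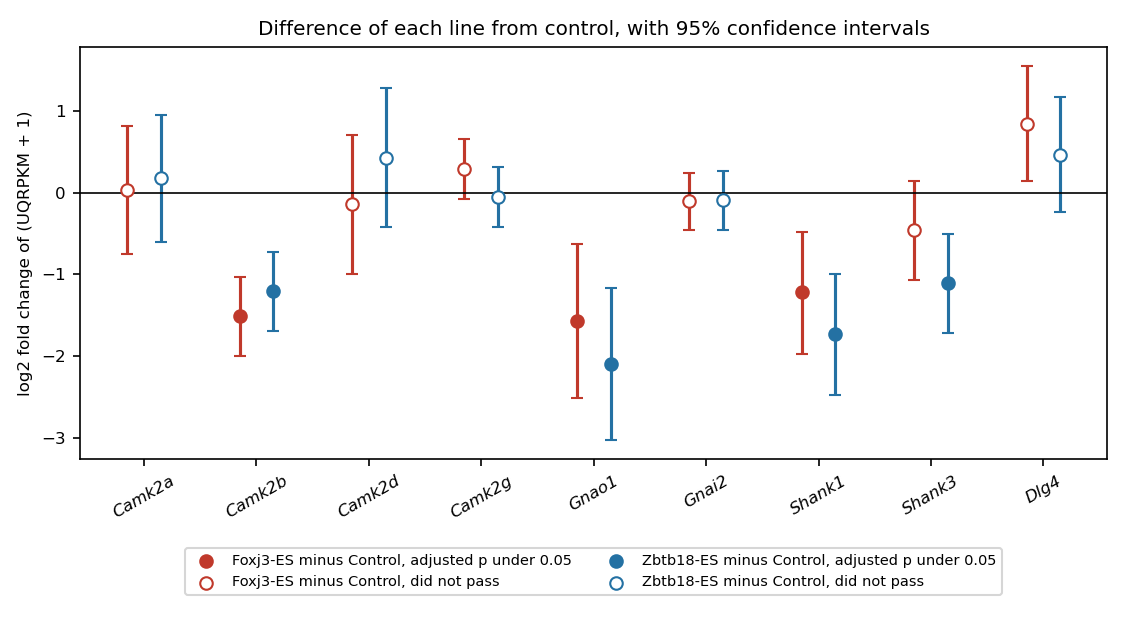
Log2 fold change of UQRPKM + 1 (vertical axis) for the 9 tested genes in Foxj3-ES minus control (red, left of each pair) and Zbtb18-ES minus control (blue), with 95% confidence intervals from limma; filled points passed an adjusted p of 0.05. Camk2b, Gnao1 and Shank1 are filled in both lines and Shank3 in Zbtb18-ES only, where the lines themselves did not differ by the test (log2 difference of -0.65, adjusted p = 0.278).

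Camk2b, the beta subunit gene on chromosome 11 from 5969644 to 6066362 (minus strand, mm10), was the most precisely measured of the genes that fell. Its UQRPKM was 66.3, 49.7 and 71.5 in the Foxj3-ES libraries and 74.0, 67.9 and 89.8 in the Zbtb18-ES libraries, against 170, 228 and 145 in control ESCs. The highest value in either line was well under the lowest control, and the lines overlapped each other. In Foxj3-ES, Camk2b fell by 1.51 log2 units (standard error 0.22, limma, adjusted p = 0.00273), a 2.85-fold difference. In Zbtb18-ES it fell by 1.20 (standard error 0.22, adjusted p = 0.0095), a 2.3-fold difference. These values rest on about 172.4 to 333.5 reads per library in the lines and 695.6 to 962.2 in controls. The call held under all 22 alternatives in both lines, with adjusted p of at most 0.0124 in Foxj3-ES and 0.0319 in Zbtb18-ES. With a correction for GC content and length the log2 fold changes were -1.30 and -0.95.

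The other CaM kinase II genes did not pass the test in either line. Camk2g, the gamma subunit gene, had 198, 141 and 190 in the Foxj3-ES libraries, 140, 138 and 136 in the Zbtb18-ES libraries, and 136, 164 and 130 in controls. Its libraries overlapped the controls in both lines, at 0.29 on the log2 scale in Foxj3-ES (95% interval -0.08 to 0.66, limma, adjusted p = 0.279) and -0.05 in Zbtb18-ES (-0.42 to 0.32, adjusted p = 0.886). Both intervals leave out a fall as large as that of Camk2b in either line. Camk2a, the alpha subunit gene that marks mature forebrain neurons, had 5.86, 6.61 and 3.49 in the Foxj3-ES libraries, 5.15, 5.72 and 6.69 in the Zbtb18-ES libraries, and 4.35, 5.93 and 4.87 in controls. These overlap throughout, and the log2 fold changes of 0.04 and 0.18 had intervals of -0.75 to 0.82 and -0.60 to 0.96. Camk2d, the delta subunit gene known from heart muscle, had 0.953, 0.916 and 1.01 in the Foxj3-ES libraries, 1.25, 2.41 and 2.26 in the Zbtb18-ES libraries, and 1.59, 1.12 and 0.855 in controls. About 4.0 to 15.6 reads per library stand behind Camk2d, and its log2 fold changes of -0.14 and 0.43 had wide intervals, -1.0 to 0.71 and -0.42 to 1.29.

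Added together per library, the 4 genes gave a CaM kinase II total of 271, 199 and 266 in the Foxj3-ES libraries, 220, 214 and 235 in the Zbtb18-ES libraries, and 313, 400 and 281 in controls. Both lines lay below all controls, and the log2 differences of -0.43 and -0.56 had a p of 0.1 in the two-sided exact permutation test (n = 3 each), the smallest that 3 libraries against 3 allow. Without control replicate 2 the difference in Foxj3-ES was -0.28. Camk2b supplied 24.5%, 25% and 26.8% of it in the Foxj3-ES libraries, 33.6%, 31.8% and 38.3% in the Zbtb18-ES libraries, and 54.5%, 57.1% and 51.8% in controls. The mean share differed from control by -29.0 percentage points for Foxj3-ES and -19.9 for Zbtb18-ES, and the Zbtb18-ES mean was 9.1 points above that of Foxj3-ES, with no overlap in any of the 3 comparisons (two-sided exact permutation test, p = 0.1 each, n = 3 each). Camk2g supplied most of the rest, with 71.2% to 73% in Foxj3-ES, 57.9% to 64.4% in Zbtb18-ES and 41.2% to 46.2% in controls. Camk2a and Camk2d together never came to more than a few percent. A share is taken within a library, so it does not depend on how libraries are scaled to each other, and with the GC and length correction the Zbtb18-ES difference was -18.2 points.

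**Figure D3:**
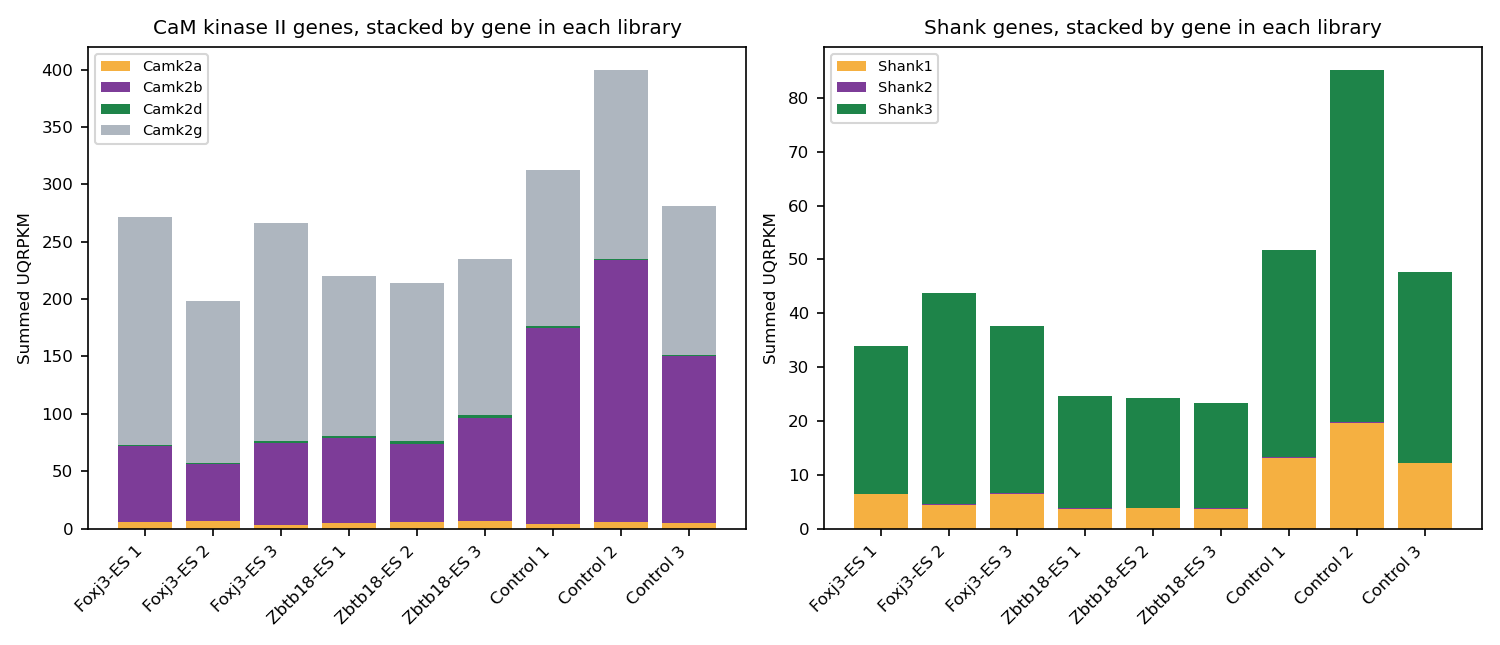
Summed UQRPKM (vertical axis) of the CaM kinase II genes (left) and the Shank genes (right) in each of the 9 libraries, stacked by gene. The Camk2b band is 24.5% to 38.3% of the bar in the lines and 51.8% to 57.1% in the controls, and control replicate 2 has the tallest bar in both panels.

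Gnao1, which lies on chromosome 8 from 93809966 to 93969388 on the plus strand, was among the 3 genes called lower in both lines, and its levels were low. Its UQRPKM was 1.78, 1.98 and 3.26 in the Foxj3-ES libraries, 0.965, 2.13 and 0.925 in the Zbtb18-ES libraries, and 7.47, 13.7 and 6.46 in controls. Every control was above every library of both lines, and control replicate 2 was the highest. Gnao1 was lower by 1.57 log2 units in Foxj3-ES (standard error 0.42, limma, adjusted p = 0.0337) and had a log2 fold change of -2.10 in Zbtb18-ES (standard error 0.42, adjusted p = 0.0141). At these low levels the size depends on the pseudocount, and with 5 in place of 1 the values were -0.92 and -1.13, nearer to 0 than those of Camk2b (-1.45 and -1.16). The levels correspond to about 7.4, 9.2 and 16.6 reads in the Foxj3-ES libraries, 5.5, 13.8 and 4.6 in the Zbtb18-ES libraries, and 44.2, 77.3 and 41.4 in controls. In Zbtb18-ES the call held under all 22 alternatives (highest adjusted p = 0.0498). In Foxj3-ES it was lost when Foxj3-ES replicate 1 or 2 or control replicate 1, 2 or 3 was left out (adjusted p = 0.0949, 0.0803, 0.0787, 0.0942 and 0.0603), although the log2 fold change stayed between -1.77 and -1.28. A pseudocount of 0.1, a filter at 5 and a fit of 2 groups only also ended it (adjusted p = 0.0576, 0.0538 and 0.0511). An antisense gene, 4930488L21Rik, shares exon bases with Gnao1 and was listed at 0 in every library.

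Gnai2 did not differ by the test. It stood at 1486, 1520 and 1685 in the Foxj3-ES libraries, 1344, 1871 and 1550 in the Zbtb18-ES libraries, and 1518, 1995 and 1556 in controls, and the groups overlapped. The log2 fold changes of -0.10 in Foxj3-ES (95% interval -0.46 to 0.25, limma, adjusted p = 0.718) and -0.09 in Zbtb18-ES (-0.45 to 0.27, adjusted p = 0.763) bound any change to well under 2-fold under the deposited scaling. With libraries scaled to the same sum or by quantiles, Gnai2 was at -0.45 and -0.41 in Foxj3-ES (adjusted p = 0.0577 and 0.0929). In Zbtb18-ES it was then at -0.25 and -0.21 (adjusted p = 0.318 and 0.386). For every 1000 units of Gnai2 there were 1.19, 1.3 and 1.93 units of Gnao1 in the Foxj3-ES libraries, 0.718, 1.14 and 0.597 in the Zbtb18-ES libraries, and 4.92, 6.86 and 4.15 in controls. This ratio of levels was lower in both lines without overlap, with log2 differences of -1.85 and -2.72, and the 2 lines were apart from each other by -0.87 (two-sided exact permutation test, p = 0.1 each, n = 3 each). Gnao1 was thus a minor alpha subunit transcript in all 9 libraries.

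Shank1, on chromosome 7 from 44310253 to 44360572, encodes a scaffold known mainly from the brain. It had 6.49, 4.38 and 6.45 in the Foxj3-ES libraries, 3.67, 3.75 and 3.69 in the Zbtb18-ES libraries, and 13.1, 19.6 and 12.1 in control ESCs. All libraries of the lines were below all controls, and the Zbtb18-ES libraries were below those of Foxj3-ES. Shank1 was lower by 1.22 log2 units in Foxj3-ES (standard error 0.34, limma, adjusted p = 0.0363) and had a log2 fold change of -1.73 in Zbtb18-ES (standard error 0.34, adjusted p = 0.0125), and the lines did not differ from each other by the test (log2 difference of -0.51, adjusted p = 0.495). About 32.7 to 58.3 reads per library stand behind the values in the lines and 137.6 to 197.1 behind those in controls. In Foxj3-ES the call was lost when any of its own libraries was left out (adjusted p = 0.0666, 0.0918 and 0.0597), any control (0.0894, 0.0949 and 0.0722), or Zbtb18-ES replicate 3 (0.0517). It was also lost with no filter and with 2 groups only (adjusted p = 0.0564 and 0.0618).

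Shank3, on chromosome 15 from 89499623 to 89560261, encodes the scaffold whose loss is known in people with Phelan-McDermid syndrome. Its UQRPKM was 27.5, 39.1 and 31.1 in the Foxj3-ES libraries, 20.8, 20.3 and 19.5 in the Zbtb18-ES libraries, and 38.6, 65.4 and 35.5 in controls. The Zbtb18-ES libraries lay below all others, while 1 Foxj3-ES library was within the range of the controls. In Zbtb18-ES, Shank3 fell by 1.11 log2 units (standard error 0.27, limma, adjusted p = 0.0282), whereas Foxj3-ES was at -0.46 (95% interval -1.07 to 0.15, adjusted p = 0.291). The Zbtb18-ES call was lost when Zbtb18-ES replicate 1, 2 or 3 was left out (adjusted p = 0.0677, 0.0609 and 0.0821), and without control replicate 1 or 2 (0.0577 and 0.0649). Its log2 difference between Zbtb18-ES and Foxj3-ES was -0.65 (unadjusted p = 0.0384, adjusted p = 0.278).

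Base composition is given beside the levels of Shank1 and Shank3. Their longest transcripts have a GC content of 61.4% and 62.4%, within the 10% of tested mRNA genes richest in GC, which begin at 58.3%. Over these 1459 genes the median log2 fold change was -0.37 in Foxj3-ES and -0.57 in Zbtb18-ES, beside -0.03 and -0.02 over all tested genes. When log2 values were corrected for GC content and length in each library, the log2 fold change of Shank1 was -0.56 in Foxj3-ES (limma, adjusted p = 0.215) and -0.88 in Zbtb18-ES (adjusted p = 0.0773), and neither passed. That of Shank3 was 0.24 in Foxj3-ES (adjusted p = 0.405) and -0.20 in Zbtb18-ES (adjusted p = 0.54). Camk2b and Gnao1, with a GC content of 53.9% and 56.1%, stayed called in both lines under the same correction. Gnao1 then stood at -1.21 in Foxj3-ES (adjusted p = 0.0408) and -1.67 in Zbtb18-ES (adjusted p = 0.0162). With control replicate 2 also left out, an alternative added after seeing the data, Gnao1 in Foxj3-ES did not pass (-1.08, adjusted p = 0.11), and neither did it with the correction and the replicate block together (adjusted p = 0.0677). The part of GC content in these levels was not tested. Exons of Shank1 and Shank3 also overlap genes on the other strand over 339 and 271 bases, and whether counting used strand was not stated in the sources used here. The Shank1 partner, 1700008O03Rik, had 6.14 to 22.5 UQRPKM over the 9 libraries.

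The Shank total, the sum of the 3 genes, was 34.0, 43.7 and 37.7 in the Foxj3-ES libraries, 24.6, 24.2 and 23.3 in the Zbtb18-ES libraries, and 51.8, 85.2 and 47.7 in controls. No groups overlapped, and the log2 differences from control were -0.64 for Foxj3-ES and -1.31 for Zbtb18-ES (two-sided exact permutation test, p = 0.1 each, n = 3 each). The difference in Foxj3-ES was -0.38 without control replicate 2, and with the GC and length correction it turned to 0.08, while that in Zbtb18-ES was then -0.37. Shank3 made up 80.8% to 89.5% of the total in Foxj3-ES, 83.7% to 84.8% in Zbtb18-ES and 74.3% to 76.7% in controls. Shank2 added almost nothing, with 0.0279 to 0.209 in Foxj3-ES, 0.0741 to 0.142 in Zbtb18-ES and 0.124 to 0.218 in controls, and a difference in Shank2 was not detectable at this depth.

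Dlg4, on chromosome 11 from 70016942 to 70047522, had a higher mean in both lines than in controls. It had 52.1, 89.7 and 77.7 in the Foxj3-ES libraries, 79.5, 40.4 and 50.4 in the Zbtb18-ES libraries, and 36.8, 54.1 and 29.9 in control ESCs. The groups overlapped, and it did not pass the test, with log2 fold changes of 0.85 for Foxj3-ES (95% interval 0.15 to 1.56, limma, unadjusted p = 0.0227, adjusted p = 0.103) and 0.47 for Zbtb18-ES (-0.24 to 1.18, adjusted p = 0.374). Corrected for GC content and length, where its transcript is at 46.8% GC, it was at 1.03 in Foxj3-ES and passed (adjusted p = 0.0401), as it did with control replicate 2 left out as well (1.20, adjusted p = 0.0357), and not with a replicate block added (adjusted p = 0.0676).

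**Figure D4:**
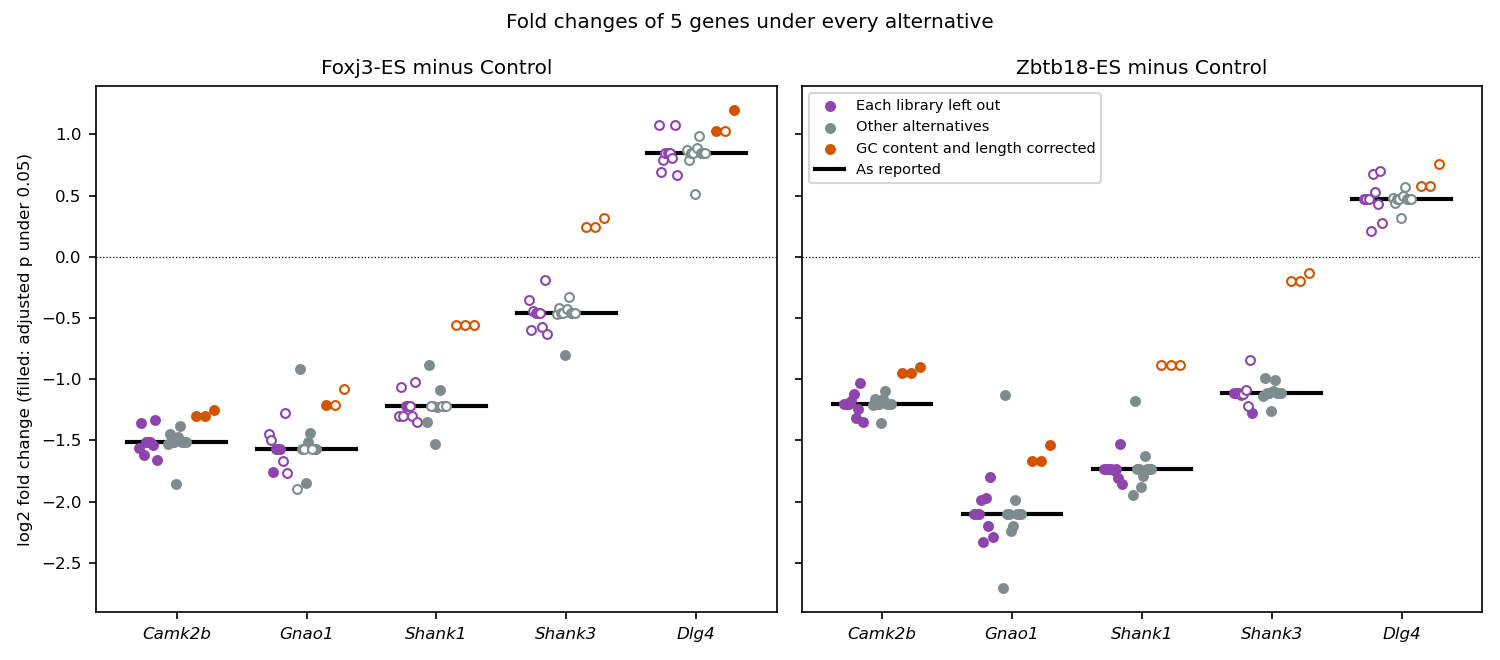
Log2 fold change (vertical axis) of 5 genes in Foxj3-ES minus control (left) and Zbtb18-ES minus control (right) as reported (black line) and under 22 alternatives, with each library left out (purple), corrected for GC content and length (orange) or changed otherwise (grey); filled points passed an adjusted p of 0.05. All points of Camk2b are filled, while the orange points of Shank1 and Shank3 are open and lie nearer to 0 or above it.

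Between the lines, none of the 9 tested genes differed in Zbtb18-ES from Foxj3-ES at an adjusted p under 0.05 by limma, and 1, Shank3, had an unadjusted p under 0.05. Among all tested genes 0.328% were called higher and 0.359% lower. Camk2b had a log2 difference of 0.31 (95% interval -0.18 to 0.79), Gnao1 of -0.52 (-1.46 to 0.41) and Camk2g of -0.34 (-0.71 to 0.03). These intervals leave room for differences of the order of 1 log2 unit in Gnao1, so the lines are not shown to act alike.

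Of 24 genes of calmodulin and related kinases, phosphatases and inhibitors, 21 were tested, and 1 was lower in Foxj3-ES and 4 in Zbtb18-ES, with none higher, beside 7.01% and 6.50% lower among all tested genes. The list had a median log2 fold change of -0.13 with Foxj3 and -0.07 with Zbtb18, beside -0.03 and -0.02 over all tested genes. Camkk2, a kinase that activates CaM kinases I and IV, had a UQRPKM of 30.4 ± 5.23 in Foxj3-ES, 29.6 ± 6.79 in Zbtb18-ES, and 62.6 ± 6.9 in controls (SD, n = 3 each), and fell in both (-1.03 and -1.08 on the log2 scale, limma, adjusted p = 0.0213 and 0.0211). Camkv, a kinase-like protein without known activity, was lower in Zbtb18-ES, at 102 ± 6.44 against 234 ± 34.1 in controls (-1.18, adjusted p = 0.0037). Camk2n2, an inhibitor of CaM kinase II, and Ppp1cc, a catalytic subunit of protein phosphatase 1, were the others that passed in Zbtb18-ES, at -1.35 (adjusted p = 0.0461) and -0.52 (adjusted p = 0.049). Camk2n2 did not pass with the GC and length correction (-0.65, adjusted p = 0.262), and with each library left out in turn Camk2n2 failed to pass in 7 of 9 fits and Ppp1cc in 8 of 9. Camkk2 failed to pass in 4 of 9 such fits in each line, and kept both calls with the correction (adjusted p = 0.0306 and 0.0345).

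Of 12 tested G protein alpha subunit genes outside Gnao1 and Gnai2, 1 was lower in Foxj3-ES and 2 in Zbtb18-ES, beside the same 7.01% and 6.50% among all tested genes. Gna12 had 185 ± 25.7 in Foxj3-ES, 175 ± 18.3 in Zbtb18-ES, and 286 ± 42.8 in controls (SD, n = 3 each; -0.63 and -0.70 on the log2 scale, limma, adjusted p = 0.0302 and 0.0237). Gna11, a subunit of the Gq class, was lower in Zbtb18-ES (259 ± 53.4 against 495 ± 117, log2 fold change of -0.93, adjusted p = 0.0179). With the GC and length correction neither of these calls was kept, with adjusted p of 0.237 for Gna12 in Foxj3-ES, 0.362 for Gna12 in Zbtb18-ES and 0.0525 for Gna11. Of 30 tested beta, gamma and regulator genes, 2 were higher in Foxj3-ES, while in Zbtb18-ES the test called 3 higher and 2 lower (all tested genes: 7.54% higher in Foxj3-ES, 5.31% higher and 6.50% lower in Zbtb18-ES). Gngt2, a gamma subunit gene known from cone photoreceptors, had 186 ± 38.9 in Foxj3-ES, 225 ± 44.3 in Zbtb18-ES, and 84.5 ± 10.5 in controls (1.12 and 1.39 on the log2 scale, limma, adjusted p = 0.00627 and 0.00358). Gng8, another gamma subunit gene, was higher in Foxj3-ES, at 80.1 ± 15.3 against 28.1 ± 4.61 (1.47, adjusted p = 0.0078). Gnb3, a beta subunit gene, and Gprin1, a binding partner of G alpha o in neurites, were lower in Zbtb18-ES (adjusted p = 0.0342 and 0.0248). Gnb3 was listed at 0 in all Zbtb18-ES libraries, against 3.27 ± 0.878 in controls, and Gprin1 had 0.195 ± 0.338 in Zbtb18-ES and 3.59 ± 1.8 in controls. Gprin1 did not pass with the correction (-1.19, adjusted p = 0.0859), and with each library left out Gnb3 failed to pass in 6 of 9 fits and Gprin1 in 4 of 9.

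Among postsynaptic partners of Shank and PSD-95, Dlgap3 fell most. Of 24 tested genes, 2 were lower in Foxj3-ES, 3 were lower in Zbtb18-ES, and none was higher, beside 7.01% and 6.50% lower among all tested genes. Dlgap3, which encodes SAPAP3, a link between PSD-95 and Shank, had 49.5 ± 17.2 in Foxj3-ES, 45.4 ± 2.86 in Zbtb18-ES, and 189 ± 63.6 in controls (SD, n = 3 each). Its log2 fold changes were -1.93 and -1.98 (limma, adjusted p = 0.0037 and 0.00477), and it kept both calls with the GC and length correction (adjusted p = 0.00575 and 0.0142). Nlgn2, a neuroligin of inhibitory synapses, was lower in Foxj3-ES at 41 ± 9.25 against 80.9 ± 27 (-0.94, adjusted p = 0.0349), and Sharpin, a binding partner of Shank, and Nrxn2, a neurexin, were lower in Zbtb18-ES (-0.71 and -1.25, adjusted p = 0.0357 and 0.0459). Nlgn2 and Nrxn2 did not pass after the correction, with adjusted p of 0.246 and 0.549, and with each library left out Nlgn2 failed to pass in 6 of 9 fits, Nrxn2 in 8 and Sharpin in 5. Among glutamate receptor genes and their auxiliary subunits 14 of 29 were tested, and 3 were lower in each line, beside the same 2 shares of all tested genes. Cacng7, an auxiliary subunit of AMPA receptors, had 93.3 ± 9.76 in Foxj3-ES, 66.7 ± 12.4 in Zbtb18-ES, and 209 ± 49.8 in controls (-1.14 and -1.62, adjusted p = 0.00716 and 0.00247). Grik3, a kainate receptor subunit gene, was lower in Foxj3-ES at 44.3 ± 12.3 against 111 ± 17.5 (-1.33, adjusted p = 0.0101), as was Cacng5 (-1.74, adjusted p = 0.0386), while Cacng8, at 11 ± 5.05 against 29.1 ± 2.47, was lower in Zbtb18-ES (adjusted p = 0.0253). Cacng8 did not pass with the correction (-0.53, adjusted p = 0.257), and with each library left out it failed to pass in 5 of 9 fits and Cacng5 in 6 of 9. Of 16 tested presynaptic vesicle genes, Rab3a was higher in Foxj3-ES at 199 ± 73 against 90.1 ± 10.7 (1.08, adjusted p = 0.0382, not passing in 5 of 9 fits with a library left out), and none passed in Zbtb18-ES. Among all tested genes 7.54% were higher in Foxj3-ES.

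Markers of the cell types that the cultures could hold are given beside these results. As background for their counts, calls over all tested genes came to 7.54% up and 7.01% down for Foxj3-ES. For Zbtb18-ES the shares were 5.31% up and 6.50% down. Whether the count of any marker list departs from such shares was not tested. In Foxj3-ES, 3 of 15 tested neuron markers were higher and none lower, with Stmn2 at 6216 ± 398 against 2249 ± 209 in controls and Gap43 at 243 ± 62.7 against 93.8 ± 34.3 (SD, n = 3 each; limma, adjusted p = 0.00374 and 0.0116). In Zbtb18-ES, 2 were lower and none higher, with Tubb3 at 200 ± 73 against 496 ± 138 (-1.33, adjusted p = 0.0118) and Nefh at 46.1 ± 9.92 against 98.2 ± 30 (-1.05, adjusted p = 0.0287). Of 7 tested neural progenitor markers only Sox1 passed. It was lower in both lines, at 9.13 ± 10.7 and 4.48 ± 1.41 against 30.7 ± 9.19 in controls (-2.13 and -2.53, adjusted p = 0.0459 and 0.0283). With the GC and length correction neither Sox1 call was kept (adjusted p = 0.0917 and 0.0645), and with each library left out Sox1 failed to pass in 8 of 9 fits in Foxj3-ES and in 6 of 9 in Zbtb18-ES. Of 14 ESC markers, 6 were lower in Foxj3-ES, while in Zbtb18-ES 5 were lower and 1 higher. Klf4, Nanog, Lin28a and Sall4 were lower in both, with Klf4 at 224 ± 24.2, 303 ± 42.6 and 912 ± 45 and Nanog at 828 ± 163, 1216 ± 143 and 2324 ± 323 in Foxj3-ES, Zbtb18-ES and controls. Lin28a was at -0.71 in Foxj3-ES and -1.53 in Zbtb18-ES (limma, adjusted p = 0.0154 and 0.000892). Sall4 was at -1.23 and -1.30 (adjusted p = 0.0157 in each). Dppa5a was the 1 that was higher in Zbtb18-ES, at 23863 ± 6803 against 9851 ± 4075 (1.34, limma, adjusted p = 0.0382). It did not pass with the correction (1.01, adjusted p = 0.089) or in 6 of 9 fits with a library left out. Pou5f1 was not called, at 0.39 in Foxj3-ES and 0.44 in Zbtb18-ES (adjusted p = 0.144 and 0.116). None of 10 tested muscle markers passed in either line in the main fit. With the GC and length correction Des, the highest of them, passed as higher in Foxj3-ES (0.72, limma, adjusted p = 0.009) and not in Zbtb18-ES (-0.02, adjusted p = 0.946). Of 4 fibroblast markers 1, Thy1, was lower in Zbtb18-ES (61.5 ± 14 against 134 ± 4.03, adjusted p = 0.0137). Of 10 extraembryonic markers 1, Eomes, was lower in Foxj3-ES (31.3 ± 4.36 against 52.5 ± 5.06, adjusted p = 0.0421). With the correction Eomes (-0.56, adjusted p = 0.0987) and Nefh in Zbtb18-ES (-0.52, adjusted p = 0.0926) did not pass, and with each library left out Eomes failed to pass in 6 of 9 fits and Nefh in 4 of 9. The part of these markers in the levels of the 10 genes was not tested.

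The genes whose pattern over the 9 libraries was most like that of Camk2b, Gnao1 and Shank1 were sought among 11843 mRNA genes with a mean UQRPKM of at least 10. The measure was Pearson's r of log2(UQRPKM + 1), and it is a description only, since the 9 points share groups and base composition. Champ1, Nacc2 and Cnnm3 were nearest to Camk2b (r = 0.989, 0.986 and 0.985). Ercc2, Cacng7 and Tbl3 were nearest to Gnao1 (r = 0.991, 0.991 and 0.987), and Cacng7, E2f8 and Samd4b to Shank1 (r = 0.983, 0.981 and 0.980). Cacng7 was thus near both Gnao1 and Shank1.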

How the data were processed

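Total RNA of 9 J1 ESC libraries, 3 each of Foxj3-ES, Zbtb18-ES and control, was sequenced on an Ion Proton. The authors deposited RPKM values (UQRPKM, with upper-quartile scaling per library). mm10 and DESeq are named in the submitters' processing notes, while aligner and counting method were not given in the sources used here. All columns of the table were mapped to libraries. The members and the gene lists were chosen with earlier results of these data known.

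Here log2(UQRPKM + 1) was fitted with limma 3.58.1 in R 4.3.3, with trended spread, for the 22268 genes at 1 or more in at least 3 libraries. All 9 libraries entered 1 fit, p-values were adjusted by Benjamini-Hochberg over all tested genes, and adjusted p values under 0.05 were called. Each adjusted p of a gene comes from limma, and fold changes on this scale understate those of low genes. The fit was tested on simulated data. Family totals, shares and ratios were compared by two-sided exact permutation tests, whose smallest p is 0.1. Named genes were the 10 members, up to 4 called genes of each list with the largest change, and the 3 genes most like Camk2b, Gnao1 and Shank1. Some genes given by the rule are left out of the text.

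Read numbers came from the spacing of low values and GENCODE M21 lengths, and are approximate, since the lengths that the authors used may differ. Coordinates and GC content come from GENCODE M21, and 19336 tested genes had GC content and length. The GC and length correction was a loess fit per library (span 0.3). Alternatives also covered the pseudocount (0.1 and 5), the filter (none, or 5), library scaling (same sum, quantiles, mRNA median), 2 groups only, no trend, a replicate block and each library left out. Promoter windows are from RefSeq (GRCm38.p6). Python 3.11.15 with scipy 1.17.1 and matplotlib 3.10.9 was used.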

Additional observations from a re-analysis of the deposited data

How the results depend on the processing

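The number of members called in Foxj3-ES was 3 and ranged from 1 to 3 with each library left out. Over all tested genes 3241 of 22268 were called, and 1703 to 3149 with each library left out. The number of members was 1 with 2 groups only (2521 genes over all) and 1 with the replicate block and the GC and length correction together (2657 of 19336 over all). In Zbtb18-ES it was 4, ranged from 3 to 4 with each library left out, and was 2 with the GC and length correction, 2 with the replicate block added to it, and 2 with control replicate 2 left out of it, the 1 alternative chosen after seeing the data. Over all tested genes 2629 of 22268 were called in Zbtb18-ES, 1242 to 2551 with each library left out, and 2214 of 19336 with the GC and length correction. In Zbtb18-ES against Foxj3-ES the number of members called was 0 under all 22 alternatives. Same-number libraries did not deviate together more than others (correlations of -0.05 to 0.08, and -0.09 to 0.09 for unlike numbers). These correlations cannot show whether same-number libraries were prepared together, which was not stated in the sources used here. With the replicate block alone, 2 members were called in Foxj3-ES, where Shank1 was lost (adjusted p = 0.0677 from limma), and 4 in Zbtb18-ES.

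Same-sum scaling shifted the median log2 fold change of all genes (-0.35 for Foxj3-ES, -0.16 for Zbtb18-ES). Under it Shank3 in Foxj3-ES passed (-0.80, adjusted p = 0.0478), and no other member changed its call. Over all tested genes the calls in Foxj3-ES then rose from 3241 to 5569 of 22268. The Shank total in Foxj3-ES turned to 0.08 with the GC and length correction, and the CaM kinase II total in Zbtb18-ES against Foxj3-ES to 0.07 with the same sum. In Foxj3-ES, Shank3 was at 0.24 with the GC and length correction, 0.24 with the replicate block as well, and 0.32 without control replicate 2.

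Log2 fold changes near 0 changed sign in members that were not called. With each library left out in turn, Camk2a ranged from -0.12 to 0.26 and Gnai2 from -0.17 to 0.02 in Foxj3-ES, Camk2g from -0.12 to 0.05 and Gnai2 from -0.22 to 0.03 in Zbtb18-ES, and Camk2a from -0.08 to 0.30 and Gnai2 from -0.11 to 0.13 between the lines. In Foxj3-ES, Camk2a was at -0.25 and Camk2g at -0.06 with the same sum. Camk2d was at 0.10 with quantiles and 0.00 with the GC and length correction, with or without the block. Gnai2 was at 0.03 with the mRNA median, 0.06 with the GC and length correction with or without the block, and 0.07 with control replicate 2 left out of it. In Zbtb18-ES, Camk2g was at 0.02 with quantiles, 0.05 with the mRNA median, 0.09 with the GC and length correction with or without the block, and 0.10 with control replicate 2 left out of it. Gnai2 was at 0.01 with the mRNA median, 0.17 with the GC and length correction with or without the block, and 0.18 with control replicate 2 left out of it. Between the lines, Gnai2 was at -0.02 with the mRNA median. The causes were not tested. Depth limits Camk2d, Gnao1 and Shank2 most, where a library holds few reads.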
